A study of Homo sapiens with 288 samples.

Results

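HAND1, DLX3, DLX5, DLX6, MSX1, MSX2, ISL1, TBX3 and PITX1 are 9 genes of transcription factors that pattern the early embryo, the limb, the heart and the extraembryonic tissues. They were chosen by gene symbol, and all 9 were among the 17492 protein-coding genes in the expected count tables. The data came from single cells made from the human embryonic stem cell line H1. The endothelial cells (EC) had been grown in E8 medium, first for 2 days with 5 ng/ml BMP4 and 25 ng/ml Activin A and then for 3 days with VEGF and WNT. The trophoblast-like cells (TB) had been grown in E7, which is E8 without FGF2, with 50 ng/ml BMP4 and SB431542, an inhibitor of activin and TGF-beta receptors. Both protocols therefore included BMP4, at different doses, and the cell types also differed in every other factor named, so the doses cannot be compared by themselves. Cells were captured on the Fluidigm C1 microfluidic system, and the amplified cDNA of 45 EC and 51 TB cells was taken from store and made into libraries in 3 experiments. All 3 used an equal cDNA input for every cell, with equal pooled volumes in EQ, volumes varied to spread the depth in EQ-Vary, and a repeat of EQ at lower depth in EQ-75%. A cell number stands for the same cDNA in every experiment, so agreement between experiments covers only the steps after cDNA synthesis.

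The labels name no separate cultures, so each cell type in each experiment was 1 sample and no test between EC and TB was made. Values below are means with the SD between cells, and intervals on summed counts and on shares of cells are exact 95% Poisson and binomial intervals, which cover counting error only. In EQ, 38 EC and 48 TB cells passed the depth and complexity limits of the study, with totals of 471578 to 3966798 counts per EC cell and 365536 to 3479243 per TB cell. CPM is the rounded count of a gene scaled to a total of 1000000 counts per cell, and a gene was called detected in a cell at a rounded count of at least 1. The cell labels were checked on marker lists, while of all genes 18.5% were at least 2-fold higher in TB and 13.1% in EC. Of 12 endothelial markers, 11 were at least 2-fold higher in EC and 0 in TB, and their summed level per cell ranged from 235.6 to 7914 CPM in EC and from 2.29 to 94.4 CPM in TB. Of 14 trophoblast markers in the tables, 7 were at least 2-fold higher in TB and 0 in EC. Their summed level per cell overlapped between the types, from 118 to 3965 CPM in EC and from 1150 to 11291 CPM in TB. The largest ratios were those of VGLL1 and KRT7, and the highest levels in TB those of the keratins KRT18 and KRT8 and the AP-2 factor TFAP2C, while GATA3, at 236 CPM in TB and 120 CPM in EC, was just inside the limit. The placental genes CDX2, ELF5, GCM1, CGA and CGB5 did not pass the 2-fold limit and had mean levels of 0.348, 3.43, 5.43, 2.93 and 0.635 CPM in TB. Of 7 amnion markers, 5 were at least 2-fold higher in TB and 0 in EC, with VTCN1 at 1142 ± 468 CPM in TB (SD, n = 48 cells) and 3.64 ± 2.77 CPM in EC (SD, n = 38 cells). The other 2, HEY1 and AQP3, were within the limit with higher means in EC. These were 149 and 0.677 CPM in EC and 88.9 and 0.0243 CPM in TB. The summed amnion level per cell overlapped, from 5.84 to 513 CPM in EC and from 368 to 3690 CPM in TB.

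BMP ligands bind receptor kinases at the cell surface, which phosphorylate SMAD1, SMAD5 and SMAD9, and the DLX, MSX, ISL1, TBX3 and HAND1 genes are known to respond to BMP in several embryonic tissues. HAND1 and HAND2 are basic helix-loop-helix factors that pair with E proteins such as TCF3, TCF4 and TCF12. HAND1 is needed for trophoblast giant cells in the mouse and is expressed in amnion, extraembryonic mesoderm and the left ventricle, whereas HAND2 is known from the right ventricle and the limb. The DLX genes encode homeodomain activators that lie in the genome as convergent pairs, among them DLX5 and DLX6, and DLX3 is known from the placenta. MSX1 and MSX2 encode homeodomain repressors, ISL1 a LIM-homeodomain factor of heart progenitors and motor neurons, TBX3 a T-box repressor and PITX1 a paired-like homeodomain factor of the hindlimb.

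The bases before the annotated start are shown for the 4 genes whose levels carry the comparison of the cell types, HAND1, MSX2 and ISL1, which were higher in TB, and MSX1, which was higher in EC. They are 250 bases of the RefSeq annotation of GRCh38.p14, 5′ to 3′ on the strand of the gene, which is minus at chr5:154478228-154478477 for HAND1 and plus at chr5:174724332-174724581 for MSX2, at chr5:51383198-51383447 for ISL1 and at chr4:4859415-4859664 for MSX1. Capitals mark the letters CCAAT or their reverse complement ATTGG, the core of the box bound by NF-Y factors.
HAND1: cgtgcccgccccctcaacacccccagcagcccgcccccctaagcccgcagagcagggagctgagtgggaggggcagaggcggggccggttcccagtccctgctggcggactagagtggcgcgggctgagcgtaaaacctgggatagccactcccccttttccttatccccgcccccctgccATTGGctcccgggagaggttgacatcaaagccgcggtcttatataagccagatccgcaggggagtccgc
MSX2: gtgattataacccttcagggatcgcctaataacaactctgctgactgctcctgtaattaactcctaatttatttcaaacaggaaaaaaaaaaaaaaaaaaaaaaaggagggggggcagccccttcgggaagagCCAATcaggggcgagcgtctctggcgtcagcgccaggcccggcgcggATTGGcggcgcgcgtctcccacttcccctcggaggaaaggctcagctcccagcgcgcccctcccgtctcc
ISL1: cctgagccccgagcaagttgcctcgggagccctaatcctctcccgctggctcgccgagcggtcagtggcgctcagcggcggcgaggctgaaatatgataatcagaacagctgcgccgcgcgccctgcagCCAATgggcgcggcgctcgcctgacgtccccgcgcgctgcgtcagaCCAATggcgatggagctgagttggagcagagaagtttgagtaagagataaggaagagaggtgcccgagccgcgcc
MSX1: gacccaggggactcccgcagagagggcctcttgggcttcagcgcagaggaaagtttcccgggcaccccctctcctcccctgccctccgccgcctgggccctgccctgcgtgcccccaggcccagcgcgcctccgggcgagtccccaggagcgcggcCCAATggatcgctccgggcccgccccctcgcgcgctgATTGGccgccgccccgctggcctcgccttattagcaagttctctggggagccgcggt
CCAAT occurred on either strand in all 4, once before HAND1, where its first base is at -69 from the start, and at 2 places before each of the other genes, the nearest at -70 for MSX2, -75 for ISL1 and -57 for MSX1. Of 27305 promoters of the same length, 33% held it at least once and 10.0% at 2 or more places. TATAA occurred before HAND1 at -28, whereas it was not found before ISL1 or MSX1 and was found before MSX2 only far from the start, at -245. It was in 19.6% of all promoters on either strand. The E-box letters CANNTG were found only before ISL1 among these 4, against 62.2% of all promoters. GGGCGG, the core of a GC box, was found before HAND1 at 3 places and before MSX1 at 2 places, against 42.3% of all promoters. GGCGCC, searched as well, was found before none of the 4 and in 16.1% of all promoters. All motifs were sought on both strands. The matches describe these letters and no binding was measured. The RefSeq table also held DLX6, with CCAAT at 2 places, and PITX1, with CCAAT at 0 places, and did not match DLX3, DLX5 or TBX3.

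In EQ, 7 of the 9 genes were at least 2-fold higher in TB than in EC by log2((mean CPM in TB + 1) / (mean CPM in EC + 1)), namely HAND1, DLX3, DLX5, DLX6, MSX2, ISL1 and TBX3, whereas 18.5% of all 17492 genes met that limit. MSX1 alone was at least 2-fold higher in EC, where 13.1% of all genes met the limit, and PITX1 met neither. The median log2 ratio of the 9 genes was 2.95, and that of all genes was 0. By the share of cells with a count, after each cell was thinned at random to 250000 counts, HAND1, MSX2 and ISL1 were higher in TB by at least 50 percentage points, 3 of 9 against 1.8% of all genes. None of the 9 was higher in EC by 50 points, against 1.19% of all genes. The 9 genes were chosen with earlier results of these data known, so the comparisons with all genes are descriptions only. By the 2-fold limit, the same 7 genes were higher in TB in the EQ-Vary and EQ-75% libraries of the same cDNA. By the 50-point limit ISL1 passed in EQ only. Its thinned shares in TB and EC were 78.3% and 31.6% in EQ-Vary and 76% and 28.2% in EQ-75%.

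**Figure D1:**
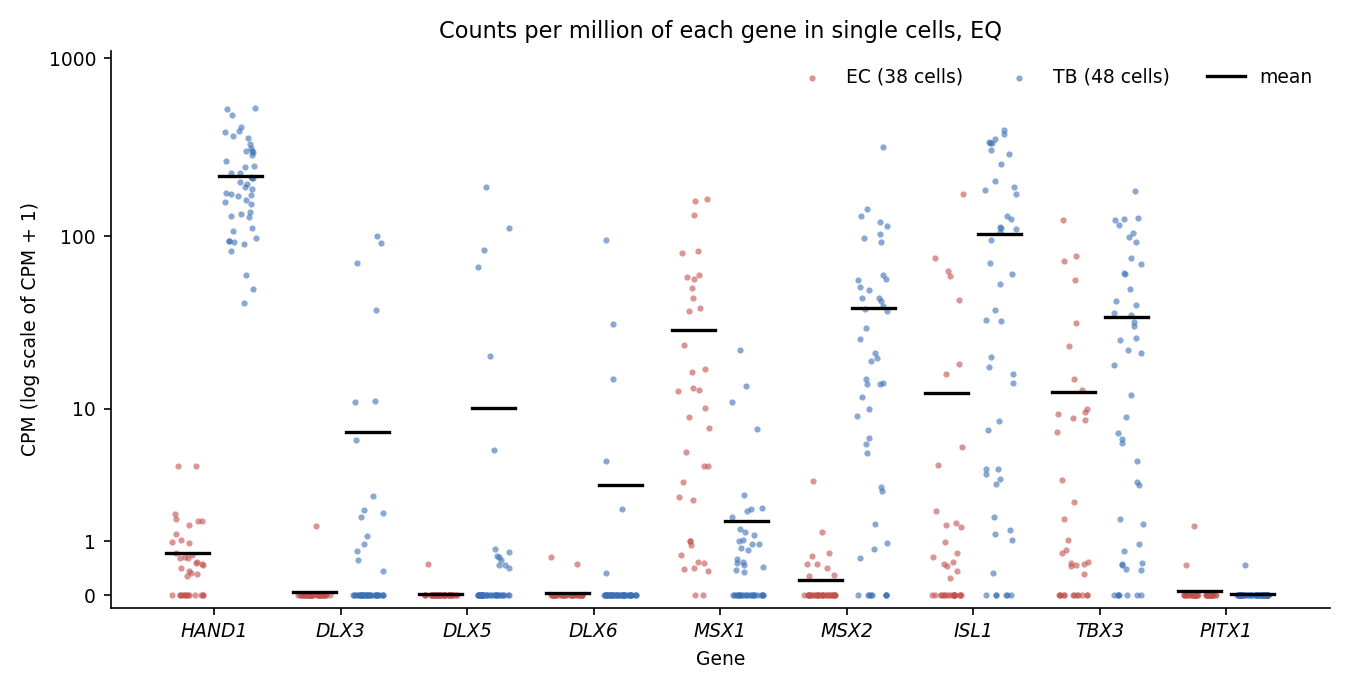
Level of each of the 9 genes in every passing cell of EQ, in CPM on a log axis of CPM + 1, with red points for the 38 EC cells, blue points for the 48 TB cells and black bars for the means. The HAND1 points of TB, from 41.6 to 526 CPM, all lie above those of EC, and the TB points of ISL1, MSX2 and TBX3 spread from 0 to over 100 CPM.

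HAND1, at chr5:154474972-154478227 on the minus strand with 2 exons, was the most abundant of the 9 in TB and was detected in all 48 TB cells. Its level in TB was 41.6 CPM in the lowest cell, 193 CPM at the median and 526 CPM in the highest, with a mean of 219 ± 122 CPM (SD, n = 48 cells). In EC the lowest cell had 0, the median was 0.480 CPM and the highest cell had 4.28 CPM, with a mean of 0.732 ± 1.01 CPM (SD, n = 38 cells), so the cells of the 2 types did not overlap. Genes with every TB cell above every EC cell were 0.08% of all genes (14), and HAND1 was the only one of the 9 among them. The others, named here after their values were seen, were LRP2, GRHL2, PTN, CPE, PAPPA2, MTUS2, VTCN1, LUM, TPM1, ADAMTS18, COL3A1, KRT19 and LRRN1. The reverse, with every EC cell above every TB cell, held for 7 genes (0.04%), among them KDR and CDH5, and for 0 of the 9. In all 3 experiments 8 genes kept every TB cell above every EC cell, HAND1 among them. The summed HAND1 counts were 21843 in TB and 45 in EC, and per summed count TB had 394 times the level of EC (interval 294 to 540).

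HAND1 was nevertheless detected in 65.8% of EC cells (25 of 38, interval 48.6 to 80.4%), although no EC cell had 5 counts and the highest had 4. After thinning to 250000 counts per cell the share was 21.1% (8 of 38), and 100% in TB. Relative to TB, the EC level was 0.334% (EQ), 0.203% (EQ-Vary) and 0.184% (EQ-75%). Of the 2170 genes with at least 100 CPM in TB in EQ, 20 had a lower share in EC, and 1 of 2170 did so in the libraries of EQ-Vary. Over all 2170, the median share was 84.8%, the 5th percentile 6.66% and the 1st percentile 0.337%, so HAND1 lay below the 1st percentile. Genes chosen after their values were seen that also lay near that end had shares of 0.319% for the immune checkpoint ligand VTCN1, 0.337% for the proteoglycan LUM, 0.240% for the integrin ITGB6 and 0.303% for VGLL1. In the other direction, TB cells held 0.267% of the EC level of the VEGF receptor KDR and 0.185% of that of the cadherin CDH5. The same EC cells did not keep their HAND1 order between experiments, with a Spearman rho of -0.03 between EQ and EQ-Vary over 38 cells and -0.11 between EQ and EQ-75% over 37 cells. With at most 4 counts in a cell, nothing is read from the lack of an order. In each experiment the libraries were pooled at 96 per lane, the number of EC and TB cells together. The source of these counts was not tested.

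The HAND paralogs divided between the cell types in opposite directions. In EC the level of HAND2 averaged 15.3 ± 45.3 CPM (SD, n = 38 cells), with 18 cells detected, a median of 0 and 5 cells at 10 CPM or more, the highest at 203 CPM. In TB HAND2 had 0.0137 ± 0.0666 CPM (SD, n = 48 cells), with 2 counts over all cells, so its log2 ratio of TB to EC was -4.01. No cell of EQ had both HAND1 and HAND2 at 10 CPM or more.

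**Figure D2:**
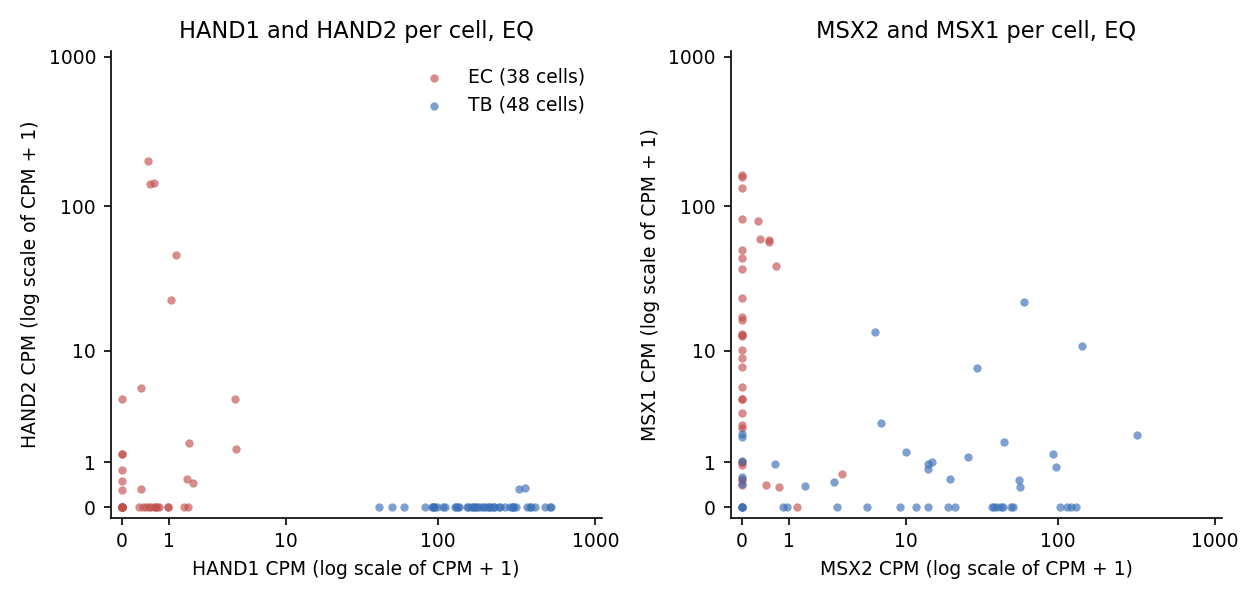
HAND2 against HAND1 (left) and MSX1 against MSX2 (right) in each passing cell of EQ, in CPM on log axes of CPM + 1, with red points for 38 EC and blue points for 48 TB cells. TB cells lie along the HAND1 axis and EC cells near 0 of it, and 2 TB cells but 0 EC cells have both MSX1 and MSX2 at 10 CPM or more.

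MSX1 (chr4:4859665-4863936, plus strand) and MSX2 (chr5:174724582-174730896, plus strand), repressors with nearly the same homeodomain, also differed in direction. MSX2 in TB was 0 in the lowest cell, 17.3 CPM at the median and 318 CPM in the highest, with a mean of 39.1 ± 56.7 CPM (SD, n = 48 cells). In EC its median was 0 and its highest value 3.35 CPM, with a mean of 0.210 ± 0.590 CPM (SD, n = 38 cells) and 21 counts over all cells. The log2 ratio of TB to EC was 5.05, and per summed count TB had 124 times the level of EC (interval 80.7 to 200). MSX2 was at 10 CPM or more in 30 of 48 TB cells and in 0 of 38 EC cells. MSX1 in EC was 0 in the lowest cell, 9.55 CPM at the median and 162 CPM in the highest, with a mean of 29.4 ± 43.3 CPM (SD, n = 38 cells). In TB its median was 0.365 CPM and its highest value 22.4 CPM, with a mean of 1.61 ± 4.06 CPM (SD, n = 48 cells). The groups overlapped, the log2 ratio was -3.54, and per summed count EC had 18 times the level of TB (interval 15.3 to 21.4). MSX1 was at 10 CPM or more in 19 of 38 EC cells and in 3 of 48 TB cells, and its thinned detection was 63.2% in EC and 22.9% in TB. Of the nonzero MSX1 values 77.8% were not whole, against 25.3% for MSX2, 43.6% for HAND1 and 59.1% over all genes. RSEM divides reads that match more than 1 place, so MSX1 counts carry an uncertainty that the intervals do not cover.

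ISL1 (chr5:51383448-51394730, plus strand, 6 exons) was high in both cell types in some cells and absent in others. In TB it was 0 in the lowest cell, 36 CPM at the median and 395 CPM in the highest, with a mean of 103 ± 126 CPM (SD, n = 48 cells). Of the TB cells 19 were at 100 CPM or more, 11 between 10 and 100 CPM, 12 below 10 CPM and 6 at 0. In EC the median was 0.410 CPM and the highest cell had 173 CPM, with a mean of 12.4 ± 32.9 CPM (SD, n = 38 cells). The EC mean rested on few cells, since 7 of 38 were at 10 CPM or more and the 5 highest held 88.2% of the summed CPM. The log2 ratio was 2.95, and thinned detection was 75.0% in TB and 21.1% in EC. The EC cells high in EQ were high again, with 7 cells at 10 CPM or more in all 3 experiments among the 37 that passed in each, so these values repeated from the same cDNA.

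TBX3 (chr12:114670255-114684175, minus strand, 7 exons) differed least of the 7. In TB it was 0 in the lowest cell, 15.3 CPM at the median and 179 CPM in the highest, with a mean of 35 ± 45 CPM (SD, n = 48 cells). In EC its median was 0.750 CPM and its highest value 123 CPM, with a mean of 12.6 ± 26.5 CPM (SD, n = 38 cells). The groups overlapped over most of their range, and the log2 ratio of 1.40 went with a mean in TB that exceeded the EC mean by less than the SD of either. TBX3 was at 10 CPM or more in 25 of 48 TB and 9 of 38 EC cells. Its exons share 196 bases with the antisense gene TBX3-AS1, 4.09% of the TBX3 exons.

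The DLX genes were close to absent in EC and high in a few TB cells each. DLX3 (chr17:49990005-49995224, minus strand) had a median of 0 in TB and a highest value of 101.1 CPM, with a mean of 7.12 ± 22.1 CPM (SD, n = 48 cells). DLX5 (chr7:97020396-97024950, minus strand) had a median of 0 and a highest value of 190 CPM, with a mean of 10.1 ± 34.4 CPM (SD, n = 48 cells). DLX6 (chr7:97005553-97011040, plus strand), which lies 9356 bases from DLX5 with their ends facing, had a median of 0 and a highest value of 95.7 CPM, with a mean of 3.12 ± 14.6 CPM (SD, n = 48 cells). In EC the 38 cells together held 1 count of DLX3, 1 of DLX5 and 3 of DLX6. Per summed count the ratio of TB to EC was 695 for DLX3 (interval 124 to 27491), 696 for DLX5 (125 to 27523) and 94.9 for DLX6 (32.2 to 462). On the log2 scale of mean CPM + 1, which understates changes from a level near 0, the ratios were 2.97, 3.45 and 2.00. The 5 highest TB cells held 91.4% of the summed CPM of DLX3, 97.9% of that of DLX5 and 99.8% of that of DLX6. Cell TB 3 alone had DLX6 at 95.7 CPM, cell TB 37 had DLX5 at 190 CPM, and cell TB 12 had DLX3 at 101.1 CPM. Those 3 cells were again the highest for the same gene in EQ-Vary, at 114, 194 and 94.9 CPM, and in EQ-75%, at 91.3, 183 and 93.2 CPM.

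Of the 48 TB cells, 12 had 1 of the 3 DLX genes at 10 CPM or more, 1 had 2 of them and 35 had none. DLX3 reached that level in 6 cells and DLX5 in 5, and no cell had both. Cell TB 37 was the only one with DLX5 and DLX6 together, at 190 and 31.7 CPM, and the 2 other cells with DLX6 at that level had 0 counts of DLX5. In EQ-75% cell TB 48 had both as well, with DLX5 at 107.7 CPM and DLX6 at 10.1 CPM, a cell that did not pass in EQ, where its library had 8572 counts. With so few cells these co-occurrences are counts only. The exons of DLX6 share 759 bases, 30.2% of their length, with the lncRNA DLX6-AS1 on the opposite strand. Reads were aligned to protein-coding genes only, and the sources used here give no strand setting. Reads from the 2 genes therefore cannot be told apart there in these counts. Among the DLX paralogs, DLX2 and DLX4 had means of 3.16 ± 12.9 and 2.87 ± 13.1 CPM in TB (SD, n = 48 cells) and of 0.172 and 0.00881 CPM in EC, and DLX1 had 0 counts in both.

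PITX1 (chr5:135027734-135034813, minus strand) had 2 counts over the 38 EC cells and 1 over the 48 TB cells, with means of 0.0499 ± 0.242 and 0.00979 ± 0.0678 CPM. A ratio of 2 counts to 1 gives no direction, since the interval of TB to EC was 0.00688 to 7.79. Per kb of transcript, the order of the means in TB was HAND1 with 129 ± 71.5 CPM per kb, ISL1 with 42.9 ± 52.7, MSX2 with 17.8 ± 25.8, TBX3 with 7.39 ± 9.51, DLX5 with 7.10 ± 24.3, DLX3 with 2.74 ± 8.48, DLX6 with 1.35 ± 6.33, MSX1 with 0.832 ± 2.09 and PITX1 with 0.00419 CPM per kb. HAND1 stood above ISL1 by more than the SD of either, and every later neighbour in this order differed by less than the larger of their SDs. In EC the order began with MSX1 at 15.2 ± 22.3 CPM per kb, ISL1 at 5.18 ± 13.8 and TBX3 at 2.66 ± 5.6, which also differed by less than their SDs.

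Single TB cells combined these genes in many ways. At 10 CPM or more, a TB cell had between 1 and 5 of the 9 genes, with a median of 3, whereas an EC cell had between 0 and 3, with a median of 1. Every TB cell had HAND1. All 8 combinations of ISL1, MSX2 and TBX3 occurred among the TB cells, with all of them in 11 cells, ISL1 and MSX2 without TBX3 in 9 cells, and none of them in 3 cells. In EC, 14 of 38 cells had none of ISL1, MSX1 and TBX3, 12 had MSX1 alone and 3 had all of them.

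**Figure D3:**
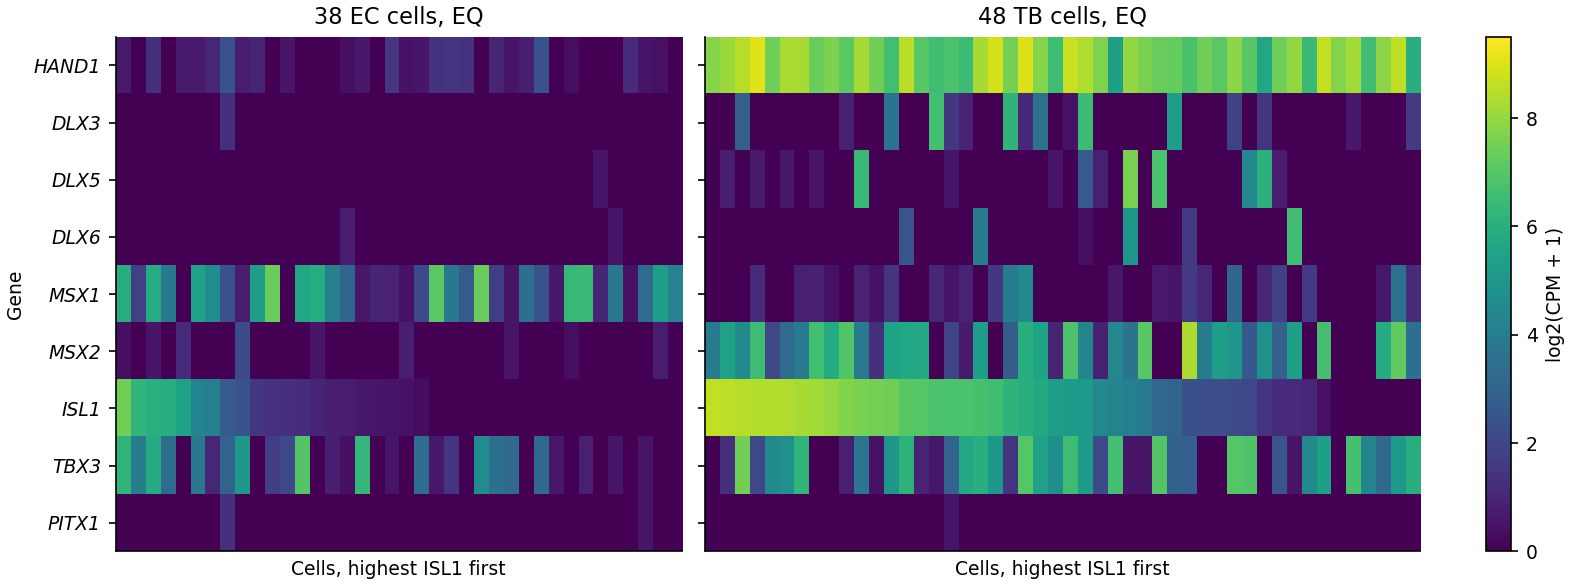
Level of the 9 genes (rows) in the 38 EC cells (left) and 48 TB cells (right) of EQ as log2(CPM + 1), with each column a cell and the cells ordered by ISL1. HAND1 is high in every TB cell, and the other genes except PITX1 are high in some TB cells only. DLX3, DLX5 and DLX6 are mostly high in different TB cells, and PITX1 reaches at most 0.470 CPM in TB.

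Between TB cells the members varied with little relation to each other. Over the 21 pairs of the 7 genes detected in at least 10 TB cells, the Spearman rho of log2(CPM + 1) ranged from -0.17 to 0.32 with a median of -0.01 (n = 48 cells). HAND1 and MSX2 had the highest, 0.32 (Pearson r = 0.27), and it was 0.32 in EQ-Vary and 0.31 in EQ-75%. ISL1 and TBX3 had -0.09 in TB, where both were at 10 CPM or more in 16 cells, ISL1 alone in 14, TBX3 alone in 9 and neither in 9. In EC the same pair had 0.41 (Pearson r = 0.46, n = 38 cells), 0.38 in EQ-Vary and 0.42 in EQ-75%, and 4 of the 7 cells with ISL1 at 10 CPM or more had TBX3 at that level. The libraries of an experiment were pooled at 96 per lane, the number of EC and TB cells together, and the total of a cell scales every gene. In TB the rho of these genes with the total count ranged from -0.19 for MSX1 to 0.25 for ISL1. Values this low are descriptions only, and their difference between cell types was not tested.

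**Figure D4:**
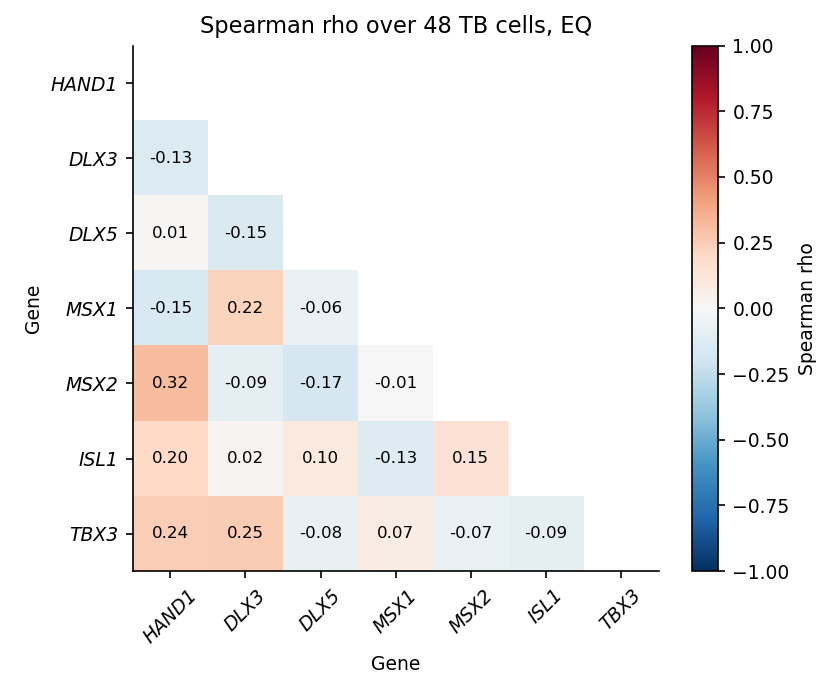
Spearman rho of log2(CPM + 1) between pairs of the 7 genes detected in at least 10 TB cells, over the 48 passing TB cells of EQ, on a colour scale from -1 to 1. The values lie between -0.17 and 0.32, the highest for HAND1 and MSX2.

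The genes most like each member were sought over the 9483 genes detected in at least 50% of TB cells. For HAND1 they were SMTNL2, GNG5 and VAMP2, with rho of 0.54, 0.54 and 0.53 over 48 cells and 0.43, 0.34 and 0.42 in EQ-75%. SMTNL2 had 76.3 CPM in TB and 0.283 CPM in EC, whereas GNG5 had nearly equal means of 209 and 204 CPM. For ISL1 they were the immunoglobulin-superfamily protein BSG with 0.56 (0.64 in EQ-75%), the peptide transporter SLC15A1 with 0.53 (0.52) and the carrier SLC16A9 with 0.53 (0.44), of which SLC15A1 had 525 CPM in TB and 10.8 CPM in EC. For MSX2 they were RRN3 with 0.52 (0.47), KLF13 with 0.51 (0.44) and ZNF274 with 0.46 (0.43), and for TBX3 MTRR with 0.52 (0.52), SGTA with 0.52 (0.53) and RBM12 with 0.49 (0.36). For MSX1, which was near the detection limit in TB, HCFC2, HIP1 and TMED1 had 0.57, 0.53 and 0.52 in EQ but 0.13, 0.34 and 0.02 in EQ-75%. Each is the highest of many genes searched and is a description of these 48 cells. Among 35 pairs of a member and a BMP, amnion or trophoblast gene in TB, chosen for mention after their values were seen, ISL1 had a rho of -0.46 with the BMP antagonist NOG (-0.52 in EQ-Vary, -0.51 in EQ-75%) and of 0.43 with TFAP2C (0.46 and 0.44). For MSX1 and TFAP2C the rho was -0.49 in EQ but nearer to 0 in the other libraries (-0.11 for EQ-Vary, -0.19 for EQ-75%). The Pearson r of that pair changed less, with values of -0.44, -0.39 and -0.35 when the experiments are taken in the same order.

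HAND1, ISL1, MSX2 and TBX3 kept their order between TB cells when the same cDNA was sequenced again, and the members found in fewer cells kept it less closely. Over 47 TB cells that passed in both, the Spearman rho between EQ and EQ-75% was 0.95 for HAND1, 0.98 for ISL1, 0.98 for MSX2 and 0.98 for TBX3, and between EQ and EQ-Vary it was 0.99, 0.98, 0.97 and 0.98 over 46 cells. For DLX3, DLX5 and DLX6 it was 0.86, 0.74 and 0.93 against EQ-75% and 0.89, 0.71 and 0.68 against EQ-Vary. The Pearson r of the same 3 genes was higher, at 0.98, 0.99 and 0.99 against EQ-75% and 0.98, 0.99 and 0.97 against EQ-Vary. The rho of MSX1 was 0.39 and 0.47 (Pearson r 0.70 and 0.83), and that of PITX1, with next to no counts, -0.03 and -0.02. Of the 45 TB cells that passed in all 3 experiments, HAND1 was detected in all 3 in every cell, ISL1 in 38, TBX3 in 35 and MSX2 in 37, whereas MSX1 was detected in all 3 in 9 cells, in some but not all in 29 and in none in 7.

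HAND1 was lower in EQ-75% than in EQ while keeping that order. Over the same 47 TB cells its mean was 219 CPM in EQ and 153 CPM in EQ-75%, 69.7% of EQ, and it was lower in 45 of 47 cells, with a mean difference per cell of -0.49 ± 0.28 (SD, n = 47 cells) on the log2 scale. The log2 ratio of the 2 means, each with 1 CPM added, was -0.52. Of the 5 members with at least 10 CPM in TB, only HAND1 was lower by 0.5 or more in that ratio of means, a limit that its mean difference per cell did not reach, as were 0.487% of the 8616 genes at that level (42), by limits chosen after the values were seen. The level in EQ-75% was 80.1% of that in EQ for TBX3 (lower in 31 of 47 cells), 85.5% for MSX2 (lower in 20 and higher in 23), 103% for DLX5 and 104% for ISL1. In EC, MSX1 in EQ-75% was 77.5% of EQ and lower in 27 of 37 cells, TBX3 was 78.5% and lower in 20, and ISL1 was 119% with 12 cells lower and 13 higher. Against EQ-Vary, HAND1 had 99.5% of its EQ level in TB. The GC content of the longest transcript was 57.3% for HAND1, 53.8% for DLX5, 52.5% for TBX3, 47% for MSX2 and 45.4% for ISL1, and the part of base composition in the difference was not tested.

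**Figure D5:**
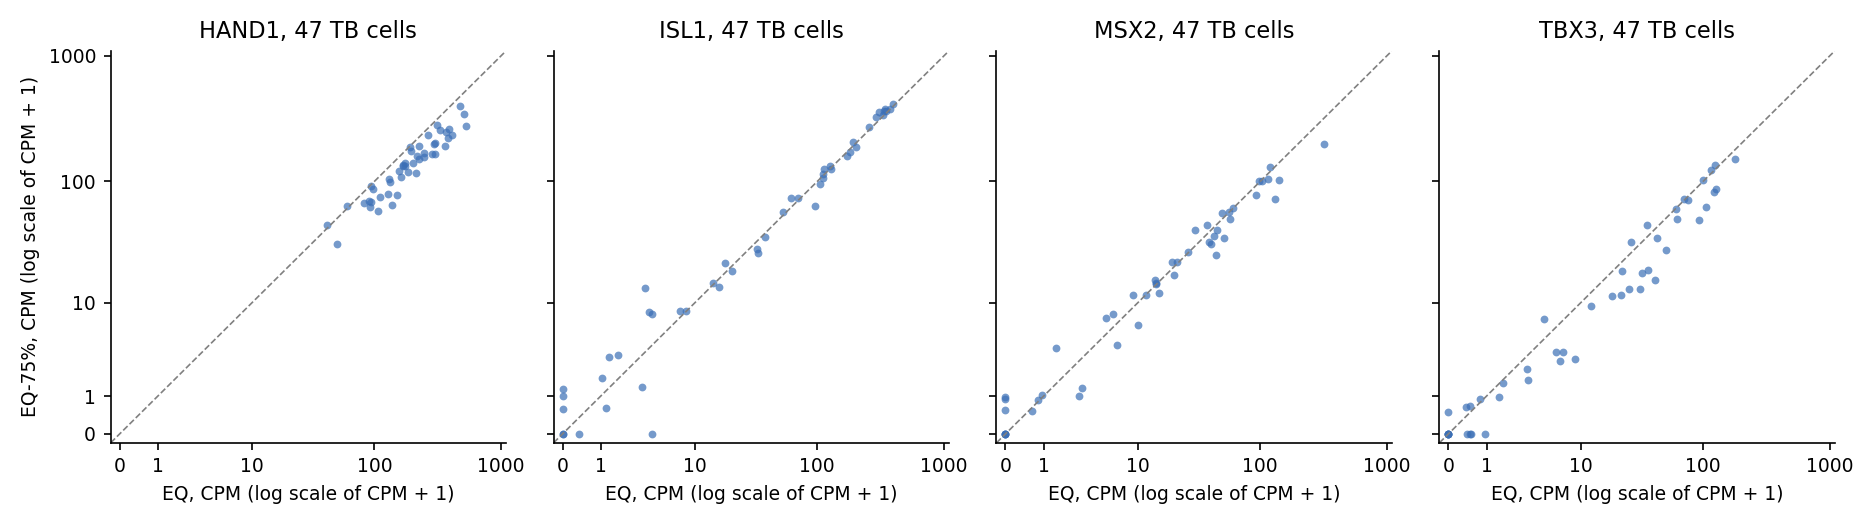
HAND1, ISL1, MSX2 and TBX3 in EQ-75% against EQ in the 47 TB cells that passed in both, in CPM on log axes of CPM + 1, with 1 point per cell and a dashed line where both are equal. The HAND1 points lie below the line in 45 cells, and the ISL1 points lie along it.

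Other genes of the same families and of the BMP pathway stood beside these values. By the same 2-fold limit, 18.5% of all genes were higher in TB and 13.1% in EC. The counts below for paralogs, mesoderm markers and neural crest markers were near these shares, and no list was tested against them. Of 10 paralogs of the members, 2 were at least 2-fold higher in TB (DLX2 and DLX4) and 1 in EC (HAND2), and TBX2, TBX5, DLX1 and PITX3 had 0 counts in both. Of 16 partner factors, 5 were at least 2-fold higher in TB and 5 in EC. Among the 4 most abundant, MEIS1, a homeodomain cofactor, had 878 ± 633 CPM in TB and 373 ± 352 CPM in EC, and SSBP2, which binds LDB proteins, had 147 and 271 CPM. LDB2, an adaptor for LIM factors such as ISL1, had 519 ± 402 CPM in EC and 8.23 ± 20.7 CPM in TB, and ID3, an inhibitor of helix-loop-helix factors, had 170 ± 194 and 47.2 ± 87.4 CPM. Of 19 genes of the BMP pathway, 5 were at least 2-fold higher in TB and 4 in EC. NOG, a secreted BMP antagonist, had 273 ± 272 CPM in TB and 1.6 ± 2.83 CPM in EC, and the receptor ACVR2A had 428 ± 301 and 159 ± 273 CPM. The receptors BMPR1A and ACVR2B had 116 and 133 CPM in TB and 144 and 116 CPM in EC, within the 2-fold limit. Of 11 mesoderm markers 1 was at least 2-fold higher in TB, the matrix protein LUM at 3042 ± 2423 CPM, and 2 in EC, HAND2 and GATA4. MIXL1, EOMES, MESP2 and FOXF1 had 0 counts in the cells of both types, and BMP4 and PDGFRA were within the limit. Of 6 neural crest markers, SOX9 was higher in TB at 84.4 ± 175 CPM and ETS1 in EC at 236 ± 217 CPM, TWIST1 was within the limit, and SOX10 and FOXD3 had 0 counts. Of 7 pluripotency markers, DPPA4 was higher in TB at 95.5 ± 104 CPM, the means of NANOG, POU5F1 and PRDM14 were higher in EC, and LIN28A had 287 and 279 CPM. The medians of NANOG were 33.7 CPM in EC and 27.4 CPM in TB, those of POU5F1 12.495 and 8.478 CPM and those of PRDM14 1.94 and 1.78 CPM, with highest EC cells at 1502, 384 and 192 CPM. The part of other cell types in the levels of the 9 genes was not tested.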

How the data were processed

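Expression was measured by single-cell RNA-seq in 45 EC and 51 TB cells in each of 3 experiments, 288 libraries in all. The authors cut reads to 51 bp, aligned these with Bowtie 1.2.3 (at most 2 mismatches) to protein-coding genes of GRCh38, and estimated expected counts with RSEM 1.2.31, which they deposited without normalization. Strand handling was not given in the sources used here. Of the sample columns, 0 were left unused.

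From the deposited expected counts, values were rounded, and cells were kept by the limits of the study (log10 total count of at least 5.4, at most 31% of counts in the 50 highest genes). Median totals of passing cells were 2025136 (EC) and 1968563 (TB) in EQ, 1781458 and 1881196 in EQ-Vary, and 1499256 and 1765249 in EQ-75%, and a single count in a cell carries an error of its own size. CPM, detection, thinning to 250000 counts and Spearman and Pearson correlations of log2(CPM + 1) were computed with scipy 1.17.1, pandas 2.3.3 and numpy 2.4.6 in Python 3.11.15, and plots were drawn with matplotlib 3.10.9. Pooled size factors for an alternative came from scran 1.30.0 in R 4.3.3. Doublets were not called here. No p-value was computed, since each cell type in an experiment is 1 sample. The 2-fold rule was tested on simulated data of EC against TB in EQ (17492 genes), where it recovered 94% of genes raised and 99% of genes lowered 4-fold and called 3.41% of unchanged genes. The changed genes were drawn only from genes above a set level in the summed EC counts. MSX1, at 27.8 CPM, was above it, and the other members, at 14.3 CPM (ISL1) or less, were below it. The simulated spread between cells was taken from EC. It was capped below the EC spread of the DLX genes, MSX2, ISL1, TBX3 and PITX1. The recovery rates therefore do not cover the members other than MSX1, and the 3.41% does not cover genes with a spread above the cap.

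The members, the gene lists and the tests were chosen with earlier results of these data known. Named genes were the 9 members, the 3 genes most like each member detected in at least 50% of TB cells, the 4 most abundant genes of each list and paralogs with at least 1 CPM. Other genes are named where a count or a value singled them out. Gene coordinates and transcript lengths were from GENCODE v44 on GRCh38, and promoter sequences were from RefSeq on GRCh38.p14. Alternatives were other cell limits, scaling, rounding, pseudocounts, thinning and the other experiments.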

Additional observations from a re-analysis of the deposited data

How the results depend on the processing

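No paired analysis was possible because the comparisons of EC and TB come from no test and the 2 types share no cells. The log2 ratios of the 9 genes kept their side of the 2-fold limit under all 72 alternative values, and all but PITX1 kept their direction. PITX1, which was near 0, went from -0.06 to 0.04 in EQ-75%. The 18 counts of members past the 2-fold limit stayed within 1.5 times. The ratio of HAND1 ranged from 4.84 to 8.04. Its lowest value came from using all cells, where near-empty EC libraries enter in which 1 or 2 counts make a large CPM. The number of member pairs in TB with a correlation of at least 0.3 in size was 1, and it was 0 with scran pooled size factors, 3 in EQ-Vary and 0 with Pearson r, where the cause was not tested. The pair HAND1 and MSX2 had just under 0.30 with scran factors and 0.27 with Pearson r, while in EQ-Vary HAND1 and ISL1 had 0.31 and DLX5 and MSX1 had -0.38. The pairs were those chosen in EQ. In EQ-Vary DLX5 was detected in 8 of 46 TB cells, under the limit of 10 cells, so the value of -0.38 rests on few cells. The share of cells with a count left its counting interval under 24 alternative values for EC and 10 for TB, mostly with a limit of 5 counts or with thinning, and stayed within it under 30 and 44. With 1 sample of each type in an experiment and no cell at more than 4 HAND1 counts in EC, depth limits statements on low levels in EC, and differences between cultures could not be assessed.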
